A study of Mus musculus with 16 samples.

Results

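At embryonic day 17 (E17), Dicer fl/fl Dhh-Cre+ sciatic nerves (mutants) were set against those of Dicer wt/fl Dhh-Cre+ controls, at an age when Schwann cells of the mouse have not yet formed myelin. The comparison took in every mouse miRNA on the array, that is each name with the mouse prefix mmu, which held for 611 of the 650 names, the other 39 being viral. Each genotype was represented by 4 mice with 1 Agilent mouse miRNA array per mouse, so that 8 of the 16 arrays of the series were used, and the other 8 hold the same genotypes at postnatal day 4 (p4). All mice were bred from Dhh-Cre+ Dicer wt/fl and Dicer fl/fl parents and have the strain label Dicer1tm1Bdh/J. Mutants and controls alike therefore carried the Cre transgene and at least 1 floxed Dicer allele. The controls were not wild type, since Cre can remove their floxed copy too and leave Schwann cells with a single working allele. Dhh-Cre acts in the Schwann cell lineage from the precursor stage on, and cells of the nerve in which Cre is not active keep the enzyme. Which cells had lost it is not measured by these data. RNA came from whole nerve, in which fewer cells of a type and less RNA per cell cannot be told apart. The arrays hold no probe for Dicer mRNA, and the genotypes are those of the labels.

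Dicer cuts the hairpin precursors that leave the nucleus into short duplexes, of which one strand is loaded into an Argonaute protein as the mature miRNA. The loaded miRNA recognises target mRNAs mainly through its seed, the bases from position 2 to position 8 counted from the 5′ end. Mature miRNAs can outlast the enzyme that made them, because the Argonaute complex protects them and they are diluted mostly by cell division. Schwann cells pass from precursors through immature cells to myelinating cells, and the miRNAs they hold change along this path.

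The miRNAs that changed at E17 are shown here by sequence, because most of those that were lower fall into families that share a seed with miRNAs that did not pass the test. Mature sequences were taken from RefSeq on GRCm38.p6, where 14 of the 17 changed miRNAs were matched by name and miR-199b*, miR-486 and miR-720 were not, and the seed is in capitals. The mature miR-20b lies at chrX:52742159-52742181 on the minus strand, and miR-363 lies 440 bp further along the same strand at chrX:52741697-52741718. miR-20b has the seed of miR-20a and miR-93, which come from related clusters, and differs from them at 2 and 3 positions.
miR-20b: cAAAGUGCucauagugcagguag
miR-20a: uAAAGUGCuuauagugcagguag
miR-93: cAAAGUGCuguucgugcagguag
miR-363 has the seed of miR-92a and miR-25, but differs from miR-25 at 13 positions in all.
miR-363: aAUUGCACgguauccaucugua
miR-92a: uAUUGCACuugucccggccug
miR-25: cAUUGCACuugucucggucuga
The let-7 miRNAs let-7d (chr13:48536078-48536099, minus strand), let-7b (chr15:85707325-85707346, plus strand, within the noncoding gene Lncppara) and let-7i (chr10:122985698-122985719, minus strand) share 1 seed with let-7a and let-7e. let-7a and let-7e differ at only 1 position, and how far the probes of this family share signal was not tested.
let-7d: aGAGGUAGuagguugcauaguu
let-7b: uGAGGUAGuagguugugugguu
let-7i: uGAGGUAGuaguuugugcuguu
let-7a: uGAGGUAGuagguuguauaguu
let-7e: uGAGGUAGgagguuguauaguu
miR-130b (chr16:17124071-17124092, minus strand) differs from miR-130a at 2 positions, and miR-27b (chr13:63300760-63300780, plus strand, within Aopep) differs from miR-27a at 1.
miR-130b: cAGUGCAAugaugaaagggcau
miR-130a: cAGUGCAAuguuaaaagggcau
miR-27b: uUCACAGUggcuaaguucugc
miR-27a: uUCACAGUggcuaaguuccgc
The 7 higher miRNAs that were matched to a sequence have no seed in common, and the seeds of the others were not compared. Among them are both strands of the miR-199a hairpin and miR-214, which lie 5571 bp apart on chromosome 1 at chr1:162217844-162217866 for miR-199a-5p and chr1:162223438-162223459 for miR-214, both on the plus strand and within Dnm3 and its noncoding partner Dnm3os. A second copy of miR-199a lies within Dnm2 at chr9:21496537-21496559 on the minus strand.
miR-199a-5p: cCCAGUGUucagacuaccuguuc
miR-199a-3p: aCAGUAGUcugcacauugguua
miR-214: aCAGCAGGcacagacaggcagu
miR-127 (chr12:109592888-109592909, plus strand, within Rtl1) and miR-379 (chr12:109709065-109709085, plus strand) belong to one imprinted domain, and miR-335-5p (chr6:30741314-30741336, plus strand) lies within the imprinted gene Mest.
miR-127: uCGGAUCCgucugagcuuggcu
miR-379: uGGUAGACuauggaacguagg
miR-335-5p: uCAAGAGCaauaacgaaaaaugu
miR-142-3p (chr11:87756903-87756925, plus strand) is a miRNA of blood cells. miR-451 (chr11:78073186-78073207, plus strand), which did not pass the test, is shown because its hairpin is known to be cut by Argonaute 2 and not by Dicer.
miR-142-3p: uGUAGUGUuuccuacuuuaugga
miR-451: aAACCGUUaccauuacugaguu

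Values are log2 median spot signals after quantile normalization over the arrays, averaged over the spots of a probe, and differences are mutants minus controls on this log2 scale. Values of single arrays are given in the order of the replicate numbers, which are names and imply no order. Expression required detection by the scanner software on 2 or more of the 4 arrays in any of the groups of the series. This held for 276 mouse miRNAs, of which 243 met the condition in an E17 group, and for 5 viral names. On a single E17 array, between 194 and 250 mouse miRNAs were detected, and the signals of any pair of arrays of one genotype correlated across probes with r from 0.978 to 0.994. All E17 arrays lay on 1 slide that was scanned once, so neither slide nor scan separated the genotypes. Each of the 2 columns of that slide held 2 arrays of each genotype, whereas its first row held mutants only and its second row controls only. The p4 arrays lay on another slide, and for every comparison of ages slide and age cannot be told apart. The number of arrays limits the precision, with a median standard error of 0.0844 for an E17 difference.

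Between mutant and control nerves at E17, 17 miRNAs were called different, which was 6.05% of the 281 expressed names. For a call, at least 1 probe needed an adjusted p of at most 0.05 from limma together with a difference of 0.5 or more, and no probe could be called the other way. 10 miRNAs were higher (3.56%) and 7 were lower (2.49%). The lower ones were miR-20b, miR-363, let-7d, let-7b, let-7i, miR-130b and miR-27b. The higher ones were miR-199a-5p, miR-199a-3p, miR-199b*, miR-214, miR-335-5p, miR-379, miR-127, miR-142-3p, miR-486 and miR-720. In 11 of the 17 the call rested on the brightest probe, whose values are given below unless another probe is named. Most miRNAs differed little at this age on this scale. Of the 276 mouse miRNAs, 208 had a difference under 0.25 in size, and only 3 had one over 1, compared to 13 at p4. The median size of the difference was 0.122 at E17 and 0.247 at p4. Of the 276, 19 were detected on no E17 array. Background was not subtracted from the signals, which makes the differences of dim probes smaller. How far this lowered the sizes at either age was not tested. Without the limit on the log2 difference, 47 miRNAs were called (16.7%), 23 higher (8.19%) and 24 lower (8.54%).

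**Figure D1:**
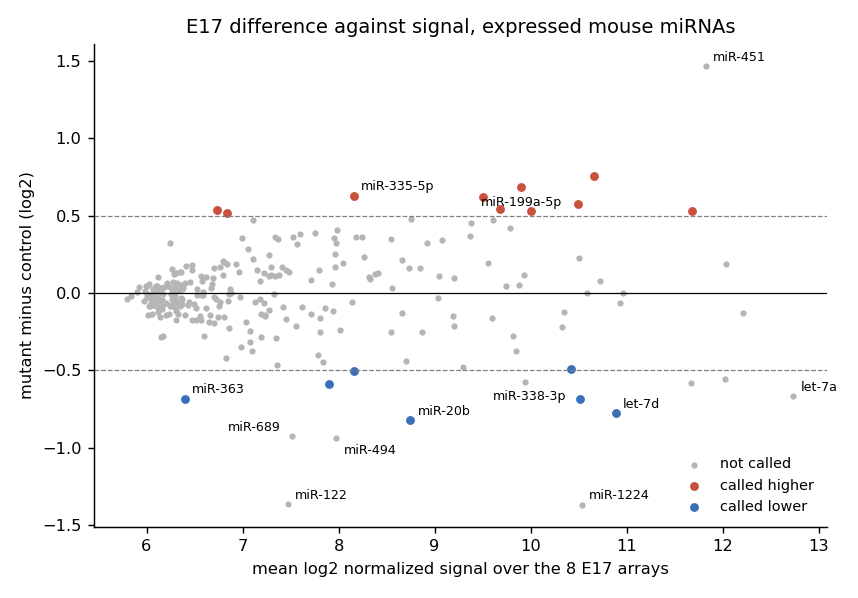
E17 difference, mutants minus controls (vertical axis, log2), against the mean log2 signal over the 8 E17 arrays (horizontal axis) for the 276 expressed mouse miRNAs, each given by its brightest probe. Dashed lines mark a difference of 0.5 in size, and colours mark the 10 miRNAs called higher and the 7 called lower. miR-451, miR-1224 and miR-122 had the largest differences and were not called.

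The balance of directions depended on the scaling. With background-subtracted signals 6 miRNAs were called higher and 16 lower, without normalization between arrays 2 and 5, with each array scaled to the 75th percentile of its probes detected throughout 5 and 10, and with that of all probes 0 and 21. Omitting the normalization or using the first of these percentiles moved the median difference of all probes by 0.256 and 0.267. All 17 differences kept their sign in both slide columns, and with the column as a block the same 17 were called. Single arrays mattered too. Without the array of control 1 there were 8 calls, 2 higher and 6 lower, and without the array of control 4 there were 23, 12 higher and 11 lower. Without mutant 1 or without control 2 there were 11. On the first principal component of the expressed probes, which held 57.0% of the variance between the 8 arrays, the mutants lay together between -3.36 and -2.93. The controls were spread from 0.58 for control 4 through 2.07 for control 3 and 4.22 for control 2 to 5.55 for control 1. The SD between arrays was larger in controls for 171 miRNAs and larger in mutants for 105, with medians of 0.101 and 0.0835.

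**Figure D2:**
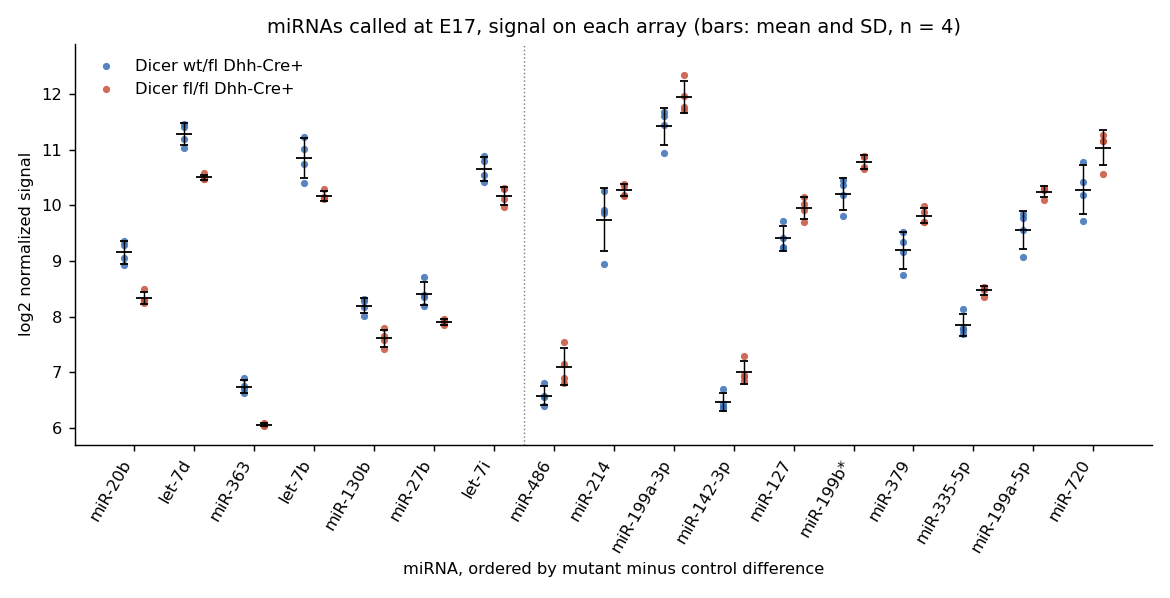
Log2 normalized signal (vertical axis) of the 17 miRNAs called at E17 on each of the 4 control arrays and the 4 mutant arrays, with mean and SD in black. miRNAs are ordered by the difference of the brightest probe, with the 7 lower ones left of the dotted line. The arrays of the genotypes overlapped in miR-214, miR-127 and miR-720.

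The largest decrease that passed the test was that of miR-20b. miR-20b and miR-363 are encoded in a cluster on the X chromosome that is a copy of the miR-17-92 cluster, whose members are known to promote proliferation. The signal of miR-20b was 9.36, 9.29, 9.05 and 8.93 in the controls and 8.50, 8.30, 8.25 and 8.29 in the mutants. Every mutant array was below every control array, which was also the case for 39 of the 281 expressed names (13.9%). The difference was -0.82 (standard error 0.119, limma adjusted p = 0.00150), a mutant signal of 56.6% of that in controls. The other probe of miR-20b differed by -0.96 and was called as well. miR-20b was called in 35 of 36 alternative settings, the exception being the one that required a difference of 1.

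miR-363 had signals of 6.90, 6.75, 6.70 and 6.62 in the controls. In the mutants the signals were 6.04, 6.09, 6.06 and 6.05, none of them well above background. They are therefore only an upper bound. When each mutant array was given the dimmest signal that was still well above background there, or the signal of miR-363 where that was brighter, miR-363 was at least 1.26-fold lower. The measured difference was -0.68 (adjusted p = 5.78e-05, limma), and it was called in 32 of 36 alternative settings. Over these settings it ranged from -2.73 with background-subtracted signals to -0.34 with scaling to the 75th percentile of detected probes. The call was lost with that scaling (adjusted p = 0.144), without normalization (-0.35, adjusted p = 0.238), and with normexp (-0.47) or a limit of 1, where the difference was below the limit on size. miR-363 was detected on all 4 control arrays and on 0 mutant arrays, a pattern that among the mouse miRNAs was shared only by miR-760. In the same cluster, miR-19b (0.05) and miR-92a (-0.06) did not pass the test, but both are also made from the miR-17-92 cluster on another chromosome, and the array cannot separate the sources. miR-18b and miR-20b* of this cluster were detected on no E17 array.

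Of the 6 expressed miRNAs of the miR-17-92 cluster, 0 were called, beside 6.05% of all names, and their median difference was -0.07 compared to 0.00 for all 276 mouse miRNAs. The values were -0.25 for miR-20a, -0.24 for miR-18a and 0.12 for miR-19a. In the third related cluster, miR-106b-25, which lies within Mcm7, miR-93 differed by -0.45 with an adjusted p of 0.0197 in limma and so passed the test but not the limit on size. miR-106b (-0.25) and miR-25 (0.11) passed neither. miR-17 itself was detected on no E17 array.

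Of the 9 members of the let-7 family, 3 were lower in the mutants. let-7 miRNAs accumulate as cells differentiate and are known to hold back growth genes. All 9 were expressed, let-7b, let-7d and let-7i were called lower, compared to 2.49% of all expressed names, and none was called higher. The median difference was -0.56, compared to 0.00 for all mouse miRNAs, and between -0.85 and -0.43 in 20 other settings. The arrays of the genotypes did not overlap in 7 of the 9 members, compared to 24.9% of all expressed names. Since the sequences differ at few positions, these members are not independent measurements.

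let-7d had signals of 11.20, 11.40, 11.47 and 11.03 in the controls and of 10.47, 10.49, 10.58 and 10.47 in the mutants. The mutants lay close together and below every control. The difference was -0.78 (adjusted p = 0.0197, limma), and the other probe was called too, with -0.72. For let-7b, the brightest probe gave 10.75, 11.02, 11.23 and 10.41 in the controls and 10.15, 10.11, 10.13 and 10.30 in the mutants. Its difference of -0.68 had an adjusted p of 0.0532 in limma, and the call came from the dimmer probe, with a difference of -0.89 and an adjusted p of 0.00150. let-7i was likewise called by its dimmer probe (-0.54, limma adjusted p = 0.0166), while its brightest probe differed by -0.49. Taken by any probe, let-7d and let-7b were called in 35 of the 36 alternative settings and let-7i in 32.

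The brightest let-7 miRNA, let-7a, had 13.01, 13.07, 13.12 and 13.08 in the controls and 12.32, 12.14, 12.17 and 12.98 in the mutants. Mutant 4 lay close to the controls while the other three were well below, and the difference of -0.67 was not called (adjusted p = 0.114, limma). let-7c had -0.58, and its dimmer probe, with -0.49 and an adjusted p of 0.0224 in limma, fell just short of the limit on size. let-7f (-0.56) and let-7g (-0.22) were not called either. By their brightest probes, let-7c and let-7f were each called lower in 9 of 36 alternative settings and let-7a in 7. miR-98, a member of this family by its seed, had -0.37 with an adjusted p of 0.00789, which passed the test but not the limit on size. let-7e stood apart, with a mean of 10.58 ± 0.27 (SD, n = 4) in the controls and 10.58 ± 0.07 in the mutants. Its sequence differs from that of let-7a at 1 position.

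**Figure D3:**
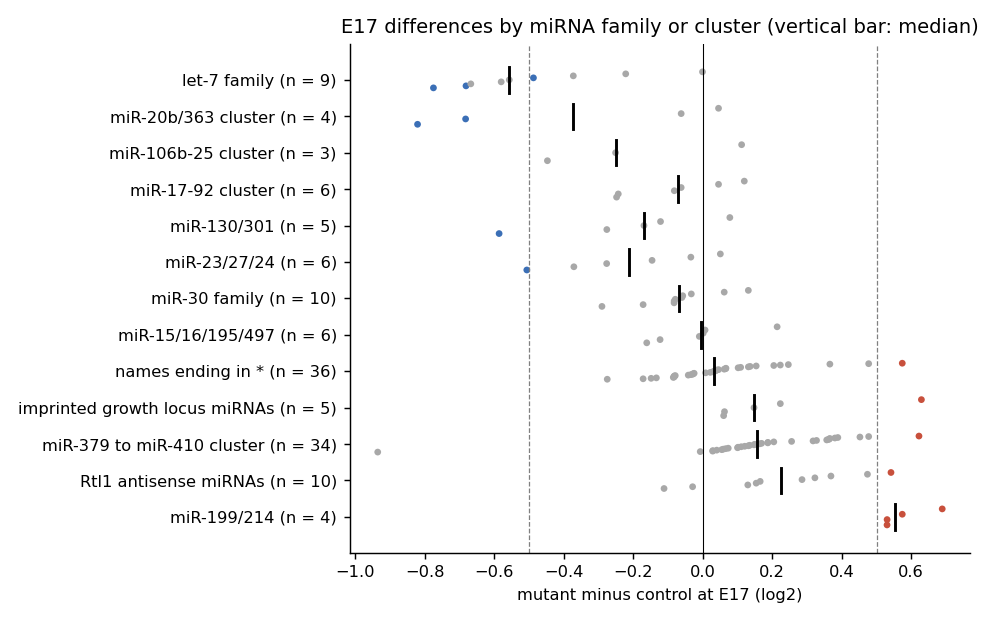
E17 difference (horizontal axis, log2) of each expressed member of 13 miRNA families, clusters or name groups (vertical axis), with a black bar at the median. Blue points were called lower, red points higher and grey points were not called, and dashed lines mark 0.5 in size. The let-7 family had a median of -0.56 and the miR-199 and miR-214 group one of 0.55.

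miR-130b, which shares its seed with the other members of the miR-130 and miR-301 families, fell from 8.20 ± 0.13 (SD, n = 4) in controls to 7.61 ± 0.16 in mutants. The controls had 8.18, 8.31, 8.27 and 8.02 and the mutants 7.79, 7.58, 7.42 and 7.65, with no overlap. The difference was -0.59 (adjusted p = 0.00556, limma). miR-130a, miR-301a, miR-301b and miR-721 were not called, with differences of 0.08, -0.17, -0.12 and -0.28.

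miR-27b is transcribed together with miR-23b and miR-24 and is known as a regulator of fat and vessel cells. Its signal was 8.70, 8.39, 8.20 and 8.36 in the controls and 7.88, 7.95, 7.85 and 7.94 in the mutants. The mutant arrays were again tightly grouped and below all controls. The difference of -0.51 (adjusted p = 0.0124, limma) was just past the limit on size, and it was called in 25 of 36 alternative settings. miR-24, with -0.37 and an adjusted p of 0.0359, passed the test but not the limit, and miR-23b (-0.28) passed neither. miR-27a and miR-23a of the paralogous cluster differed by -0.15 and 0.05 and were not called.

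Among the miRNAs that rose, all 4 expressed members of the miR-199 and miR-214 group were called, compared to 3.56% of all expressed names called higher. miR-199a and miR-214 are made mainly from the noncoding transcript Dnm3os, while no locus was matched for miR-199b*. The group is known as miRNAs of mesenchymal cells. miR-199a-5p was 9.07, 9.55, 9.76 and 9.84 in the controls and 10.09, 10.31, 10.28 and 10.30 in the mutants. All mutants exceeded all controls, and control 1 was the lowest array. The difference was 0.69 (standard error 0.197, limma adjusted p = 0.0402). With the array of control 1 left out the difference was no longer called, as with 7 other arrays left out one at a time. miR-199a-3p was called by its dimmer probe, with a difference of 0.65 (limma adjusted p = 0.0195), and so were miR-199b* (0.57) and miR-214 (0.52). Their brightest probes did not pass the test, with limma adjusted p of 0.176, 0.0932 and 0.142. Taken by any probe, these calls held in 29, 22 and 19 of 36 alternative settings, and that of miR-199a-5p in 21. Both strands of the miR-199a hairpin are among the 4, so they are not independent measurements. miR-214 overlapped between the genotypes, at 8.94, 9.92, 10.25 and 9.86 in the controls and 10.35, 10.19, 10.38 and 10.17 in the mutants. The median of the group was 0.55 and stayed above that of all mouse miRNAs in 20 other settings, by 0.16 to 0.68.

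The share of the summed mouse miRNA signal held by 6 miRNAs of fibroblasts and smooth muscle moved with this group. It was 4.54% to 7.59% in the controls and 8.85% to 9.82% in the mutants. 4 of these 6 markers are the miRNAs of the miR-199 and miR-214 group themselves. Of the other 2, miR-143 differed by 0.05 and was not called, and miR-145, a defining miRNA of smooth muscle, was detected on no E17 array. The part of these cells in the result was not tested.

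3 further called miRNAs come from imprinted loci, which are expressed from only the maternal or the paternal chromosome and are active in embryonic tissue. miR-335-5p was 1 of 5 expressed names from Mest, Igf2 and H19, miR-379 1 of 34 in its cluster and miR-127 1 of 10 antisense to Rtl1. Of all expressed names, 3.56% were called higher. miR-335-5p lies within Mest. It had 7.75, 7.80, 7.69 and 8.13 in the controls and 8.36, 8.51, 8.54 and 8.49 in the mutants. The genotypes did not overlap, and the difference of 0.63 (standard error 0.0982, adjusted p = 0.00171, limma) had the smallest p among the increases. miR-335-5p was called with each of the 16 arrays left out in turn, and in 31 of 36 alternative settings. With scaling to the 75th percentile of all probes its difference was 0.24 (adjusted p = 0.447, limma). Its other probe was well above background on 1 control and 1 mutant array. That probe differed by 0.14 and was not called (adjusted p = 0.0932, limma). The other strand, miR-335-3p, was close to background and differed by 0.06.

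miR-379 was 8.75, 9.34, 9.52 and 9.16 in the controls and 9.98, 9.70, 9.71 and 9.88 in the mutants, again without overlap. Its difference was 0.62 (adjusted p = 0.0228, limma). It is the first miRNA of a long cluster in the Dlk1-Dio3 domain that ends with miR-410. Of the 48 names of this cluster on the array, 34 were expressed, and miR-379 was the only one called, a share close to the 3.56% of all names called higher. Of the 34, 32 had a positive difference, compared to 135 of all 276 mouse miRNAs, and the median was 0.16. In 20 other settings this median lay between 0.02 and 0.34, and 0.09 to 0.36 above that of all mouse miRNAs. The members come from 1 cluster and were read on the same arrays, so their signs are not independent measurements. miR-411, miR-411*, miR-299* and miR-376b had adjusted p-values from 0.0137 to 0.0449 in limma and differences of 0.39, 0.37, 0.48 and 0.38, below the limit on size. The strongest exception was miR-494, with -0.94 and an adjusted p of 0.241.

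miR-127, which lies opposite to Rtl1 in the same domain, was 9.25, 9.24, 9.41 and 9.73 in the controls and 9.70, 10.03, 10.16 and 9.91 in the mutants. Control 4 reached the lowest mutant. The difference of 0.54 had an adjusted p of 0.0381 in limma, and it was called in 20 of 36 alternative settings. Among the 10 expressed miRNAs antisense to Rtl1, which are not independent measurements either, 8 had a positive difference and the median was 0.23. miR-136 (0.47, limma adjusted p = 0.0224) and miR-434-5p, with 0.29 and an adjusted p of 0.0228, passed the test but not the limit. With scaling to the 75th percentile of all probes, the median of this list was -0.01, still above that of all mouse miRNAs. miRNAs named with a star, the older mark for the strand taken to be the less abundant one of a hairpin, had a median of 0.03 over 36 expressed names. Of these, miR-199b* was called, a share close to the 3.56% of all expressed names called higher.

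miR-142-3p and miR-486 are known from blood cells. miR-142-3p, a miRNA of all leukocytes, had 6.44, 6.37, 6.35 and 6.71 in the controls and 7.30, 6.96, 6.84 and 6.91 in the mutants. Every mutant was above every control, the probe was well above background on 3 control arrays and all mutant arrays, and the difference was 0.54 (adjusted p = 0.00436, limma). miR-486, which is abundant in red blood cells and muscle, had 6.57, 6.39, 6.56 and 6.80 in the controls and 7.55, 7.15, 6.90 and 6.81 in the mutants. The lowest mutant was hardly above the highest control, and the difference was 0.52 (adjusted p = 0.0296, limma). miR-486 was called in 21 of 36 alternative settings.

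miR-451 had the largest positive difference of all miRNAs. It is the main miRNA of red blood cells, and its maturation does not need Dicer. Its signals were 11.28, 10.38, 10.64 and 12.05 in the controls and 12.97, 12.77, 12.27 and 12.21 in the mutants. The genotypes did not overlap, but the controls were widely spread, with an SD of 0.75, and control 4 nearly reached mutant 4. The difference of 1.47 was not called (standard error 0.466, adjusted p = 0.0624, limma). It was called higher in 8 of 36 alternative settings, among them the fit of the E17 arrays only (adjusted p = 0.0328, limma), array weights (adjusted p = 0.00612) and the omission of control 4, which gave 1.79 (adjusted p = 0.0245), or of p4 control 2.

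The shares of the signal held by markers of blood and vessel cells had higher medians in the mutants. The erythroid and leukocyte lists hold miR-451, miR-486 and miR-142-3p themselves, so their shares are no separate result. The 3 erythroid miRNAs, miR-451, miR-144 and miR-486, held 1.74% to 5.45% of the summed mouse signal in the controls and 5.39% to 12.2% in the mutants. Control 4, which was nearest to the mutants on the first principal component, had the highest erythroid share of the controls. The 5 leukocyte miRNAs on the list held 0.224% to 0.294% in the controls and 0.353% to 0.422% in the mutants, without overlap. miR-223 differed by 0.36 and miR-144 by 0.32, and neither was called, although a dimmer probe of each passed the test without reaching the limit on size. miR-142-5p, miR-150 and miR-155 were detected on no E17 array. The endothelial miRNAs miR-126-3p and miR-126-5p held 0.732% to 1.02% in the controls and 1.11% to 1.46% in the mutants, also without overlap. miR-126-5p was detected on 0 control arrays and 1 mutant array and differed by 0.05. miR-126-3p differed by 0.48 and was not called (adjusted p = 0.0932, limma). The part of blood, vessels and connective tissue in the calls was not tested.

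**Figure D4:**
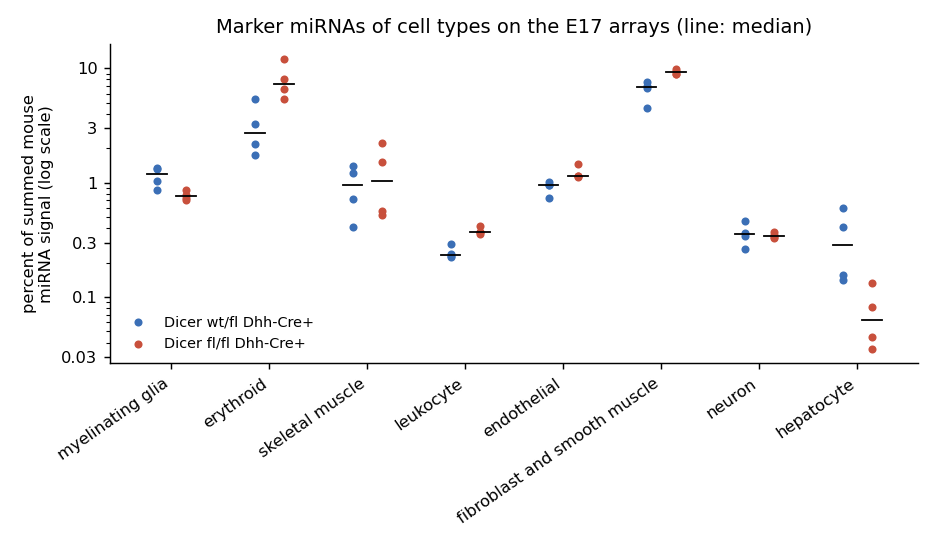
Share of the summed background-subtracted mouse miRNA signal (vertical axis, percent, log scale) held by the marker miRNAs of 8 cell types (horizontal axis) on each E17 array, with the median as a line. The shares of erythroid, leukocyte, endothelial and fibroblast and smooth muscle markers had higher medians in the mutants, and the erythroid shares overlapped.

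The 4 markers of myelinating glia, which are known from oligodendrocytes and Schwann cells, held 0.856% to 1.35% of the signal in the controls and 0.700% to 0.862% in the mutants. The ranges overlapped slightly. The median difference of the 3 expressed ones was -0.14, but it was positive without normalization and with scaling to the 75th percentile of detected probes. Relative to all mouse miRNAs, this median stayed below 0 in 20 other settings, between -0.57 and -0.008. miR-338-3p, the most abundant of them, had 10.45, 10.40, 9.99 and 10.09 in the controls and 9.64, 9.69, 9.57 and 9.73 in the mutants. All mutants were below all controls, but the difference of -0.57 was not called (standard error 0.206, adjusted p = 0.0925, limma). It was called lower in 10 of 36 alternative settings, with adjusted p-values of 0.0114 in the fit of the E17 arrays only, 0.0156 with the replicate block, 0.0258 with array weights and 0.00859 in the deposited table (limma), and it was also called without the array of p4 control 4. miR-338-5p was detected on 1 control array and 0 mutant arrays, as was miR-138, and a dimmer probe of miR-338-5p passed the test with -0.15 (limma adjusted p = 0.0224). miR-219, a defining miRNA of myelinating oligodendrocytes, was detected on no E17 array. Markers of skeletal muscle (0.411% to 1.40% in controls, 0.523% to 2.22% in mutants) and of neurons (0.263% to 0.467% and 0.326% to 0.372%) overlapped between the genotypes. miR-122, a miRNA of hepatocytes that a nerve should lack, was above background on all 4 control arrays and on 3 mutant arrays, with 9.08, 8.60, 7.57 and 7.38 in the controls and 6.62, 6.86, 6.38 and 7.31 in the mutants. Its share of the signal was 0.141% to 0.604% in the controls and 0.0352% to 0.133% in the mutants, without overlap. Its difference of -1.36 was not called (adjusted p = 0.166, limma).

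The last of the called miRNAs, miR-720, is no longer held to be a miRNA, since its sequence matches a fragment of a transfer RNA. Its brightest probe had 10.42, 10.19, 9.73 and 10.78 in the controls and 10.57, 11.15, 11.15 and 11.26 in the mutants, with overlap through mutant 1. The difference of 0.76 had an adjusted p of 0.0820 in limma, and the call came from the other probe. It was made in 18 of 36 alternative settings.

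Further miRNAs passed the test without reaching the limit on size. Among the uncalled miRNAs, the 10 with the lowest p were miR-181b, miR-103, miR-669c, miR-98, miR-676, miR-324-5p, miR-411*, miR-34a, miR-30d and miR-411. miR-181b differed by -0.35 (adjusted p = 0.00150, limma) and miR-103 by -0.48 (adjusted p = 0.00450). miR-103 belongs to a family that regulates metabolism, and its value was short of the limit by little. miR-34a, a target of p53 that slows the cell cycle, had 9.04, 9.16, 8.77 and 8.74 in the controls and 8.48, 8.54, 8.42 and 8.51 in the mutants. The genotypes were separate, and the difference was -0.44 (adjusted p = 0.0192, limma). miR-676 had -0.46, miR-324-5p -0.29, miR-30d -0.29 and miR-669c -0.15, the last at signals that no E17 array placed well above background. Large differences that did not pass the test were those of miR-1224, which is made by splicing in place of the first nuclear cut (-1.37, limma adjusted p = 0.131), and of miR-689 (-0.92, adjusted p = 0.0932). miR-1224 was 11.71, 11.44, 10.84 and 10.89 in the controls and 9.48, 9.94 and 9.97 in mutants 1 to 3 and close to 10 in mutant 4, so that these arrays did not overlap although the test was not passed. miR-1224 was called lower in 7 of 36 alternative settings, among them the fit of the E17 arrays only (adjusted p = 0.00734, limma) and the methods' t-test after Benjamini-Hochberg adjustment. It was also called without the array of p4 control 2.

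Detection by the scanner software was lost in the mutants more often than it was gained. 13 mouse miRNAs were detected on at least 3 control arrays and at most 1 mutant array, and 0 the other way round. Besides miR-363 and miR-760 they were let-7d*, miR-125a-3p, miR-135a*, miR-17*, miR-191*, miR-221, miR-324-3p, miR-342-5p, miR-484, miR-669c and miR-7a. Apart from miR-363, none of them was called. miR-760, for example, had a mean of 6.27 ± 0.15 (SD, n = 4) in the controls and 6.13 ± 0.08 in the mutants, and miR-221 had 6.24 ± 0.06 and 6.17 ± 0.05. The summed signal before normalization was 50680, 49798, 36445 and 60241 in the controls and 39221, 50688, 44113 and 39042 in the mutants. On the log2 scale its mean was 15.57 ± 0.30 (SD, n = 4) in the controls and 15.39 ± 0.18 in the mutants, which corresponds to 88.7% of the control level. The genotypes overlapped, and the difference of -0.17 did not pass an exact two-sided permutation test (p = 0.400, where 0.0286 is the smallest that 4 against 4 arrays allow). The median log2 signal of the expressed probes went the other way. It was higher in the mutants by 0.22 and did not pass the test either (exact permutation p = 0.343).

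The E17 changes were then set beside the same contrast at p4, which uses none of the E17 arrays but was part of the same fit. At p4, 59 miRNAs were called (21%). Of the 17 miRNAs called at E17, 12 were called in the same direction at p4, 8 of the 10 higher ones and 4 of the 7 lower ones, and none in the opposite direction. These 12 were 70.6% of the E17 calls and 20.3% of the p4 calls. All 4 miRNAs of the miR-199 and miR-214 group, miR-335-5p, miR-379, miR-127 and miR-720 were higher at both ages, with p4 differences from 0.61 for miR-335-5p to 1.31 for miR-199b*. miR-363 (-0.93 at p4), miR-20b (-1.96), miR-130b (-0.66) and miR-27b (-1.45) were lower at both ages. The 3 let-7 miRNAs called at E17 were not called at p4, where let-7d had -0.42, let-7b -0.25 and let-7i -0.21. The family median at p4 was -0.32, and let-7f was its only member called lower there (-0.55, limma adjusted p = 0.0429). miR-142-3p (0.34) and miR-486 (0.17) were not called at p4 either. Over all 276 mouse miRNAs, 74.6% of the differences had the same sign at the 2 ages.

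**Figure D5:**
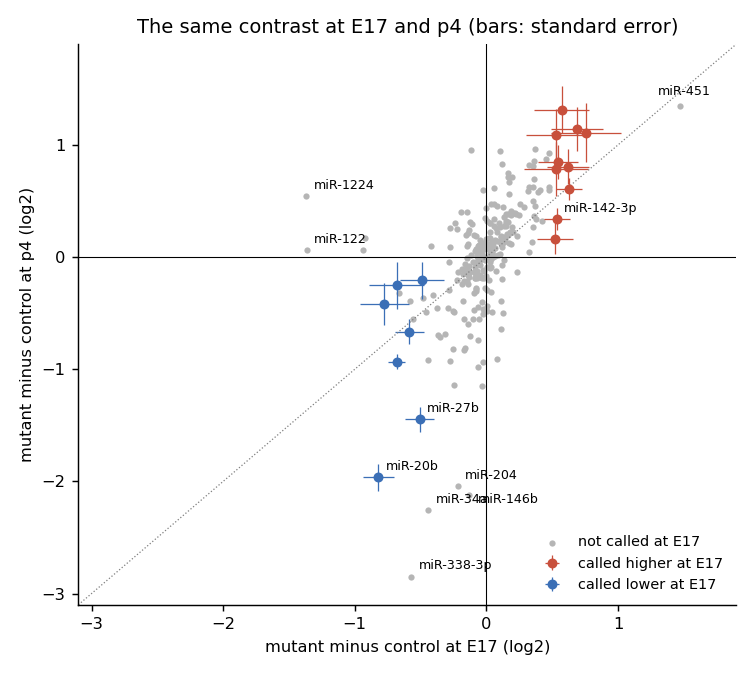
Difference between mutants and controls at E17 (horizontal axis, log2) and at p4 (vertical axis, log2) for the 276 expressed mouse miRNAs, with standard errors for the 17 called at E17 and a dotted line where both are equal. miR-338-3p, miR-34a, miR-146b and miR-204 lay far below that line, and miR-20b and miR-27b were lower at both ages.

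Whether the mutant effect itself differed between the ages was tested by the difference of the 2 contrasts, which was called for 27 miRNAs (9.61%), 19 toward a lower signal at p4 (6.76%) and 8 toward a higher one (2.85%). Of the 17 miRNAs called at E17, 3 were among them. The decreases of miR-20b and miR-27b were larger at p4, by -1.14 (adjusted p = 0.000320, limma) and -0.94 (adjusted p = 0.000752). let-7b was called through its dimmer probe with a decrease that was smaller at p4, its brightest probe giving 0.43 with an adjusted p of 0.388. The 5 largest called changes toward a lower signal at p4 were those of miR-338-3p (-2.28), miR-146b (-1.99), miR-204 (-1.82), miR-34a (-1.82) and miR-20b. At E17, the differences were -0.57 for miR-338-3p, -0.14 for miR-146b, -0.21 for miR-204 and -0.44 for miR-34a, none of them called. The E17 signals of miR-146b were all too close to background to be scored as well above it. The 5 largest changes toward a higher signal at p4 were those of miR-183 (1.07), miR-96 (0.71), miR-182 (0.62), miR-29a (0.59) and miR-487b (0.55), and their E17 differences lay between -0.19 and 0.12.

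The study singled out 16 miRNAs on these same arrays as higher at p4 than at E17 in controls and lower in p4 mutants, so neither their p4 values nor the E17 controls are independent of that choice. At E17, miR-27b was the only one of the 16 that was called, a share close to the 6.05% of all names. 13 of the 16 had a negative difference and the median was -0.12, whereas at p4 it was -0.92. The arrays did not overlap in 6 of the 16, beside 24.9% of all names. miR-34a and miR-24 passed the test at E17 by their brightest probes without reaching the limit on size. The others that did not pass both included miR-204 (9.31 ± 0.37 in controls and 9.10 ± 0.19 in mutants, SD, n = 4), miR-30a (-0.03), miR-30b (-0.06), miR-30c (-0.06), miR-30a* (-0.17), miR-140 (0.08), miR-140* (0.11), miR-138 (-0.03), miR-100 (-0.10) and miR-195 (0.01). A dimmer probe of miR-100 passed the test with -0.26, also below the limit. Of 3 further miRNAs of the study, miR-9 (-0.31) and miR-455 (0.13) were not called at E17 either, and the call of miR-1224 depended on the setting as given above. The miR-30 family had a median of -0.07 over 10 expressed names, with 0 called lower at E17, where 2.49% of all names were, and 4 called lower at p4, where 10.7% were. The sign of its median turned to positive without normalization and with scaling to the 75th percentile of detected probes, while relative to all mouse miRNAs it stayed below 0.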

How the data were processed

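Total RNA of sciatic nerves was labeled with Cyanine 3 and hybridized to Agilent mouse miRNA arrays (design 021828 in the file headers). The authors deposited spot intensities from Feature Extraction 10.5.1.1, not yet normalized across arrays, together with quantile-normalized probe intensities that served as an alternative. The log2 median signals of 13000 noncontrol spots were quantile normalized over 16 arrays and averaged per probe without outlier spots, after the methods of the study. limma 3.58.1 in R 4.3.3 fitted 4 group means to the 16 arrays, with Benjamini-Hochberg adjustment over 681 probes. The methods' t-test was an alternative. Replicates are separate mice. Named were all miRNAs called at E17, the 10 uncalled ones with the lowest p, the 5 largest called differences between ages in each direction, the miRNAs singled out by the study, members of lists with a called miRNA and cell type markers. Members and lists were chosen with earlier results of these data known. A named miRNA is given by its brightest E17 probe. Names follow the array design, and 32 of 35 looked up were matched to RefSeq (GRCm38.p6), with the strand assigned by hand. Steps were tested on simulated data. Alternatives covered signal, scaling, filter, limits, test, probes, blocks, arrays in the fit and each array left out.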

Additional observations from a re-analysis of the deposited data

Results flagged for a closer look

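Of 100 groups of 4 arrays examined among the named miRNAs, 7 held 1 array that stood apart from the other 3 by Dixon's criterion, where chance alone marks about 1 in 20. Low control arrays were those of control 4 for miR-676 (7.35) and of control 1 for miR-411* (6.94), and a high one was that of control 1 for miR-204 (9.86). Mutant 1 stood low for miR-199a-5p (10.09), miR-720 (10.57) and miR-1224 (9.48) and high for miR-100 (7.95).

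The mutant effect differed between p4 and E17, by the difference of the contrasts in limma, for 19 named miRNAs whose brightest probe passed both the test and the limit on size. Of the miRNAs called at E17 these were miR-20b (-1.14) and miR-27b (-0.94), both lower at E17 and lower by more at p4. Of those not called at E17, the difference was -2.28 for miR-338-3p, -1.99 for miR-146b, -1.82 for miR-204 and for miR-34a, -1.12 for miR-30a, -0.99 for miR-140, -0.91 for miR-138, -0.75 for miR-140*, -0.68 for miR-30c, -0.66 for miR-30a*, -0.65 for miR-23b and -0.62 for miR-455. It was positive for miR-183 (1.07), miR-96 (0.71), miR-182 (0.62), miR-29a (0.59) and miR-487b (0.55). The ages lay on separate slides.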

How the results depend on the processing

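Among the 36 alternatives, no called miRNA was called in the opposite direction. The 17 calls at E17 (10 higher, 7 lower) became 11 with normexp (4 lower), 7 without normalization (2 higher), 10 without the expression filter (3 higher), 10 with probes averaged per miRNA (3 higher), 0 with a log2 limit of 1 (0 higher, 0 lower) and 47 with no limit (23 higher, 24 lower). Without adjustment, 111 of the 276 mouse miRNAs had a limma p under 0.05 for at least 1 probe. The higher calls were 6 and the lower 16 with background-subtracted signals, 5 higher with the 75th percentile of detected probes, 0 and 21 with that of all probes, 6 higher with quantile normalization within E17, and 3 higher with the methods' t-test after Benjamini-Hochberg adjustment. The lower calls were 13 in a fit of the E17 arrays only, 14 with the methods' t-test unadjusted, 14 with array weights and 11 with the table the authors deposited. Leaving out each array in turn gave 8 to 23 calls, 2 to 12 higher and 6 to 11 lower. The lowest count came without control 1 and the highest without control 4, and 11 calls were left without mutant 1 or control 2. The 59 calls at p4 became 144 with background-subtracted signals, 89 without normalization, 207 with the 75th percentile of detected probes, 14 with the limit of 1 and 168 with none, and lay between 57 and 69 with arrays left out. The 27 differences between ages became 52, 85 and 46 under the first 3 of these, 49 with the 75th percentile of all probes, 7 with the limit of 1, 60 with none, 56 with array weights and 43 with the deposited table, and 23 to 42 with arrays left out. The difference in summed signal ranged from -0.31 to -0.07 with arrays left out, but was 0.22 when the median of the expressed probes replaced the sum. The cause of these shifts was not tested, apart from the limits on size, which act by construction. Of 4660 values of named miRNAs, 4427 kept their call or its absence, 96 lost and 137 gained a call, and 126 that were called in neither fit changed sign. Normexp was run on median signals, and it and the slide column were chosen after seeing the data. Normexp on mean signals was not run, as the files used here hold no such column. Signal over background limits miR-363, whose mutant level is only a bound.

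The study used pairs of littermates, but the labels do not tie replicate numbers to litters. Deviations from the group means correlated between same-numbered arrays at -0.20, -0.52, -0.19 and 0.09, and 0 of 4 pairs were best matches. This cannot show whether same-numbered arrays came from littermates, since littermates need not deviate together. With the replicate block, 19 miRNAs were called at E17 (9 higher, 10 lower), of which 16 were among the 17, and 58 were called at p4 and 29 for the difference between ages.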
